A study of Rattus norvegicus with 61 samples.

Results

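Of 31196 rat transcripts, 150 were followed as monocyte transcripts that are nearly absent from liver. They were chosen by their measured levels. Values were expressed as CPM, the count divided by the sample total and multiplied by 1000000. A transcript was kept when its mean over 15 livers was below 1 CPM, its mean in sorted monocytes (Mon) was at least 2 CPM, and the ratio of (Mon mean + 1) to (next highest sorted mean + 1) was above 1.5. In all, 225 transcripts met these thresholds, and the 150 with the highest ratios were taken. The levels in sorted cells and the overall liver level are therefore properties of the choice and are given without a test. Spleen and whole blood cells (WBC) did not enter the choice, and the comparison between them is the main test. It is not fully independent of the choice, since the rule held the lymphocyte types sorted from spleen below Mon, sorted from blood.

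All rats were male Sprague-Dawley animals of WT genotype, bought at 6 weeks of age per the methods. B cells, natural killer (NK) cells, CD4 T cells (CD4T) and CD8 T cells (CD8T) were sorted from the spleen, and neutrophils (Neu) and Mon from the blood, with 6 samples of each type from untreated rats. The unsorted samples from untreated rats were 5 spleens, measured as cell suspensions, and 5 WBC samples, which are blood after lysis of erythrocytes. The livers were perfused and came from fasted rats 24 h after gavage of vehicle (Ctrl, 0.5% methylcellulose), acetaminophen (APAP, 3 g/kg) or 4,4'-methylene dianiline (MDA, 300 mg/kg), with 5 livers in each group. APAP and MDA are liver toxicants. Nothing in the labels states whether numbered samples of a group came from separate animals, so the p-values measure the spread between these samples, which may be partly technical.

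Monocytes are circulating myeloid cells that share a bone marrow precursor with neutrophils. They leave the blood for injured tissue and can become macrophages or dendritic cells there, and the spleen holds a reservoir of them beside its resident macrophages. The liver has resident macrophages of its own, the Kupffer cells. In this study Mon were gated as CD45+ CD11b+ CD3- CD45RA- CD161- cells of low side scatter, a gate set by surface proteins and cell granularity.

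The transcripts are known here by their Ensembl identifiers (ENSRNOT) alone. The rat reference list GRCr8 held 47357 genes without transcript identifiers, so 0 of the identifiers could be matched to it. Gene names, functions and sequences are therefore not given, and the Mon label could not be checked against marker genes. The Mon samples were checked against each other instead. Each of the 6 correlated more closely with the other Mon samples than with any other sorted type, with mean correlations of 0.976 to 0.979. NK, CD4T and CD8T replicate 5 correlated more closely with B cells than with their own type, at 0.971 against 0.957, 0.973 against 0.963 and 0.974 against 0.958, respectively. CD8T replicate 2 correlated more closely with CD4T, at 0.965 against 0.962. Without the first 3 or all 4 of these samples, alternatives added after the data were seen, 148 of the 150 transcripts were chosen again. Sample totals ran from 3429971 in Neu replicate 5 to 14146402, with a median of 11019514, and those of the Mon samples from 9510256 to 10995313.

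The 150 transcripts covered a wide range of abundance in Mon. Their Mon means ran from 2.06 to 764 CPM, with quartiles of 5.83, 16.5 and 45.4 CPM. Of them, 29 were below 5 CPM, 84 lay between 5 and 50 CPM and 37 were above 50 CPM. The ratio of the rule had a median of 2.91 and a highest value of 7.58, and it was above 3 in 69 transcripts. At the edge of the choice, the last transcript inside had a ratio of 2.007, a Mon mean of 6.23 CPM and a Neu mean of 2.60 CPM, and the first outside had a ratio of 2.004, a Mon mean of 2.60 CPM and an NK mean of 0.794 CPM.

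Most were stable over the Mon samples. The coefficient of variation over the 6 samples had a median of 15.6%, with quartiles of 11.9% and 25.8%. In 126 transcripts each Mon sample was above all 30 other sorted samples, a separation that the rule itself favours. In 144 the level was above 0 in all 6 Mon samples. In 13 the coefficient of variation was above 50%, and 6 of those 13 were at 0 in some Mon sample. The median Mon mean of these 13 was 4.06 CPM, a low level within the list.

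The 2 transcripts with the highest ratios show both patterns. ENSRNOT00000041605 was measured at 70.3, 77.9, 68.7, 91.6, 89.9 and 78.7 CPM in the Mon samples, with a mean of 79.5 ± 9.59 (SD, n = 6). Its next highest mean was 9.62 ± 3.29 CPM in Neu (SD, n = 6), and all 6 Mon samples were above every other sorted sample. ENSRNOT00000075878 was measured at 16.5, 3.59, 0, 6.23, 4.09 and 3.91 CPM in the Mon samples. It was listed at 0 in every other sorted sample, in WBC and in spleen, and its coefficient of variation was 98.6%. Among the livers it was above 0 in a single MDA sample, at 1.95 CPM.

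Outside Mon, the nearest sorted type was most often the other blood myeloid cell. The next highest mean was that of Neu in 110 transcripts, B in 15, NK in 14, CD8T in 6 and CD4T in 4, and 1 transcript was at 0 in all of these types. Each level was then expressed as a percentage of the transcript's own Mon mean, and the median over the 150 transcripts was taken in each sample. This median ran from 92.3% to 108% in the Mon samples. In Neu it was 15.2% at the lowest, 25.3% at the median and 30.9% at the highest. The B samples ran from 8.53% to 11.5% with a median of 9.04%, and the NK samples from 7.97% to 16.1% with a median of 9.13%. The CD4T samples ran from 4.68% to 12.5% with a median of 7.30%, and the CD8T samples from 4.39% to 13.3% with a median of 7.28%. The ranges of the 4 lymphocyte types overlap, so these types are not ordered among themselves. The highest NK, CD4T and CD8T samples, at 16.1%, 12.5% and 13.3%, were replicate 5 of each type, which stood nearer to B cells as given above, and the highest Neu sample was replicate 5, the shallowest library.

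The WBC levels lay below Mon and above the lymphocytes, and the spleen levels overlapped with NK through NK replicate 5. The WBC samples 1 to 5 had median levels of 21.9%, 26.7%, 31.6%, 28.9% and 23.9% of the Mon mean, with a mean of 26.6% ± 3.89 (SD, n = 5). The spleen samples 1 to 5 had median levels of 18.2%, 18.3%, 15.4%, 17.6% and 14.0%, with a mean of 16.7% ± 1.90 (SD, n = 5). The 5 spleen samples were below all 5 WBC samples, while the WBC samples overlapped with Neu. In bulk samples such as these, fewer cells of a type and less RNA per cell cannot be told apart.

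**Figure D1:**
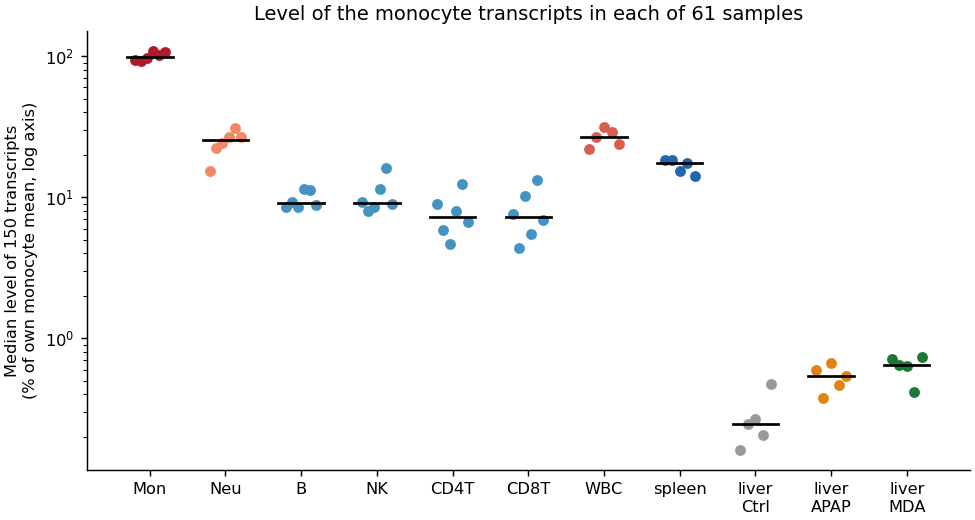
Median level of the 150 monocyte transcripts in each of the 61 samples, as a percentage of each transcript's own Mon mean, on a log axis. Points are samples and black lines are group medians. Mon lies near 100% by construction, spleen (14.0% to 18.3%) lies below WBC (21.9% to 31.6%), and every liver lies below 1%.

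Transcript by transcript, 0 of the 150 had a WBC or spleen mean above the Mon mean, an outcome that the choice by a high Mon mean favours. The WBC mean was 26.3% of the Mon mean at the median over transcripts, with quartiles of 20.1% and 35.2% and a highest value of 68.3%. The spleen mean was 16.3%, with quartiles of 11.6% and 25.8% and a highest value of 62.7%. The WBC mean was above the Neu mean in 95 transcripts and below it in 54. Detection remained high in these unsorted samples. A WBC sample had between 139 and 144 of the 150 transcripts above 0 and a spleen sample between 135 and 140, against 147 to 150 in a Mon sample. Of all transcripts, 54.8% to 56.1% were above 0 in a WBC sample, 56.6% to 58.1% in a spleen sample and 52.7% to 54.2% in a Mon sample.

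Across the 150 transcripts, Spearman's rho of the Mon mean was 0.96 with the WBC mean and 0.92 with the spleen mean. Across all 12154 transcripts with a Mon mean of at least 2 CPM, it was 0.95 and 0.87. These correlations describe the means and are across transcripts, which are not independent replicates.

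The spleen holds the 4 sorted lymphocyte types, and its level was compared with theirs as a description. The spleen mean was above all 4 splenic lymphocyte means in 101 of the 150 transcripts and below all 4 in 3. Over the 23060 transcripts above 0 in some splenic lymphocyte type, the corresponding shares were 20.2% and 21.6%. The rule held the lymphocyte means low, so the 2 sets of shares are not like for like. No splenic myeloid cell was sorted, and which cells of the spleen hold these transcripts was not tested.

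Spleen and WBC were then compared by edgeR's quasi-likelihood test on the deposited values rounded to whole numbers, over all 18037 transcripts with a total of at least 10 counts in these samples. Benjamini-Hochberg adjustment covered all transcripts tested, with a threshold of 0.05. Of all transcripts tested, 37.0% were called, 18.1% higher in spleen and 18.9% lower. Of the 150 monocyte transcripts, 149 were tested, and 80 were lower in spleen, 3 were higher and 66 were not called. With the list chosen without NK, CD4T and CD8T replicate 5, and also with CD8T replicate 2 left out as well, 78 were lower and 3 were higher. The log2 fold change of spleen against WBC was below 0 in 133 and above 0 in 16. Its median was -0.83 with quartiles of -1.23 and -0.42, against a median of 0.02 with quartiles of -0.39 and 0.40 over all transcripts tested. All 5 spleen samples lay below all 5 WBC samples in 53 of the transcripts and above them in 3. Over all transcripts tested these shares were 8.43% and 22.8%. At an unadjusted p under 0.05, 93 of the 149 were found, against 45.6% of all transcripts tested. The rule held the types sorted from spleen below Mon, a type sorted from blood. The shares of the monocyte transcripts and of all transcripts are therefore not like for like.

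The scaling of the libraries shifts all transcripts together and so moves the calls. Without TMM normalization (edgeR's scaling of library sizes for composition), 70 of the transcripts were lower in spleen and 4 were higher. Their median log2 fold change was then -0.66, and that of all transcripts was 0.19. Over all transcripts tested without TMM, 28.1% were higher and 11.6% lower. Of all the calls, 48.9% were higher in spleen with TMM and 70.8% without it.

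**Figure D2:**
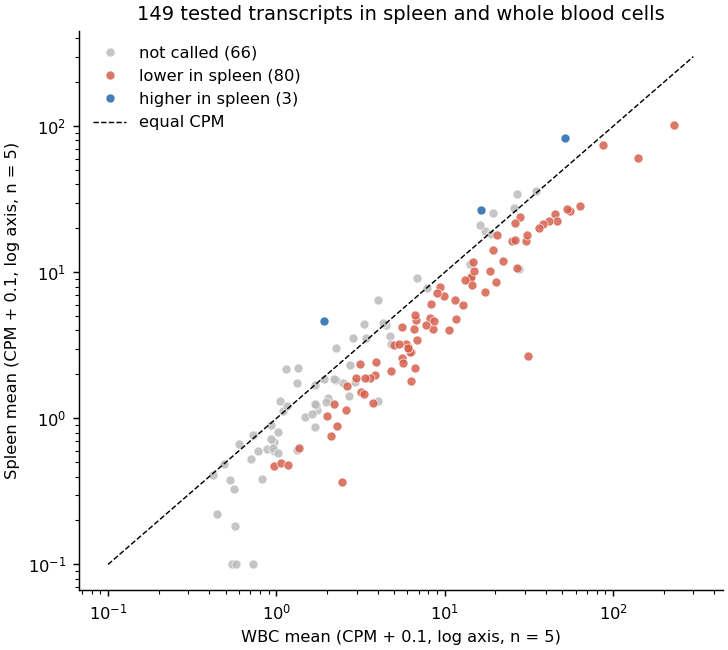
Mean level in spleen against mean level in WBC (CPM + 0.1, log axes, n = 5 each) for the 149 tested monocyte transcripts. Colours give edgeR's call and the dashed line marks equal levels, and the 80 transcripts called lower in spleen lie below it.

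The most abundant of the 150 in Mon was also lower in spleen. ENSRNOT00000020870 had a Mon mean of 764 ± 37.7 CPM (SD, n = 6) and a Neu mean of 177 ± 34.3 CPM (SD, n = 6). It was measured at 173, 221, 286, 248 and 228 CPM in WBC and at 116, 103, 110, 91.3 and 88.1 CPM in spleen. All spleen samples were below all WBC samples, with a log2 fold change of -1.35 (SE 0.099, edgeR adjusted p = 7.38e-06). ENSRNOT00000041605, the transcript with the highest ratio, was measured at 12.1, 14.2, 16.0, 15.8 and 12.2 CPM in WBC and at 9.48, 10.6, 8.20, 9.26 and 7.87 CPM in spleen. Its groups did not overlap either, and its log2 fold change was -0.80 (SE 0.084, edgeR adjusted p = 4.75e-05).

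The transcript with the lowest fold change among those whose samples lay apart was ENSRNOT00000087520. It was measured at 24.1, 25.5, 34.6, 37.0 and 35.7 CPM in WBC and at 0.519, 3.58, 4.02, 2.63 and 2.12 CPM in spleen. The spleen level was 13.4-fold lower by the fit, with a log2 fold change of -3.74 (SE 0.33, edgeR adjusted p = 1.58e-05). Its WBC mean of 31.4 ± 6.07 CPM (SD, n = 5) lay between the Neu mean of 22.2 ± 7.92 and the Mon mean of 45.9 ± 7.12 CPM (SD, n = 6 each). Its spleen mean was 2.57 ± 1.37 CPM (SD, n = 5). The means of the lymphocyte types sorted from spleen were higher, at 9.80 CPM in B, 5.65 in NK, 3.98 in CD4T and 4.19 in CD8T. All spleen samples were below the B samples, which ran from 7.24 to 12.3 CPM. The spleen samples overlapped with NK (0 to 14.0 CPM), CD4T (0 to 9.86 CPM) and CD8T (0.523 to 9.87 CPM). The highest NK and CD8T samples were replicate 5.

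ENSRNOT00000073025 was measured at 4.87, 5.56, 8.63, 6.28 and 5.62 CPM in WBC and at 1.65, 1.67, 1.57, 2.04 and 1.64 CPM in spleen. Its log2 fold change was -1.99 (SE 0.15, edgeR adjusted p = 8.0e-06). Its levels in the lymphocyte types were low, with a Mon mean of 12.9 CPM and a Neu mean of 5.33 CPM against 0.495 to 0.765 CPM in the lymphocyte types.

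The 3 transcripts higher in spleen had B cells as their next highest sorted type. ENSRNOT00000016567 was measured at 5.82, 6.59, 3.20, 4.75 and 2.31 CPM in spleen and at 1.63, 1.91, 1.86, 1.40 and 2.30 CPM in WBC. The lowest spleen sample was just above the highest WBC sample, and the log2 fold change was 1.13 (SE 0.27, edgeR adjusted p = 0.0078). Its means were 11.3 CPM in Mon, 3.73 in B and 1.48 in Neu. ENSRNOT00000072926 was measured at 29.3, 28.7, 28.0, 27.6 and 20.5 CPM in spleen and at 14.2, 14.7, 18.2, 16.9 and 17.9 CPM in WBC. Its groups did not overlap, and its log2 fold change was 0.55 (SE 0.088, edgeR adjusted p = 0.000712). Its Mon mean was 52.1 CPM and its B mean 19.8 CPM, the latter with a single B sample at 37.7 CPM. The third had a mean of 83.3 CPM in spleen and 51.9 CPM in WBC, with a log2 fold change of 0.52 (edgeR adjusted p = 0.00187).

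**Figure D3:**
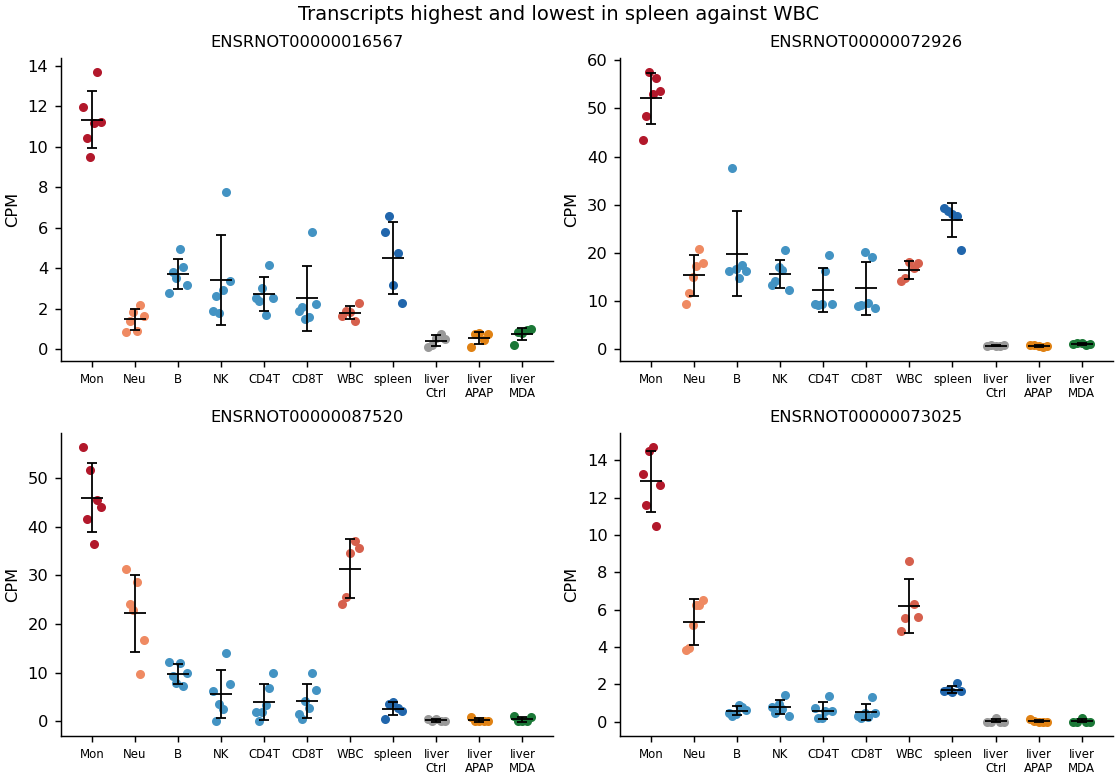
Level in CPM of 4 monocyte transcripts in every sample of the 11 groups, with points for samples and bars for the mean and SD. The upper pair is higher in spleen than in WBC and the lower pair is lower. ENSRNOT00000087520 reaches 24.1 to 37.0 CPM in WBC and at most 4.02 CPM in spleen.

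The transcripts were also divided by the sorted type that came next after Mon. Where Neu came next (110 transcripts), 72 were lower in spleen, 0 were higher and 38 were not called, and the log2 fold change had a median of -1.01. Where a lymphocyte came next (39 transcripts), 8 were lower, 3 were higher and 28 were not called, with a median of -0.17. Within these, the 15 with B next had 1 lower and 3 higher, with a median of 0.25, and the 14 with NK next had 6 lower and 0 higher, with a median of -0.44. The 6 with CD8T next had 1 lower and 0 higher, and the 4 with CD4T next had 0 called by edgeR. Neu were sorted from blood and the lymphocytes from spleen, so this division is not independent of the comparison of spleen with WBC. The difference between these sets of transcripts was not tested.

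**Figure D4:**
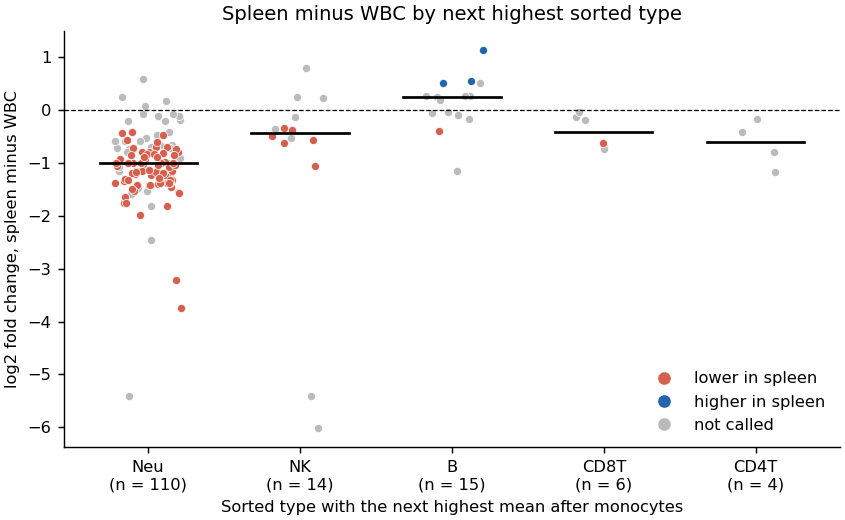
Log2 fold change of spleen minus WBC for the 149 tested monocyte transcripts, by the sorted type with the next highest mean after Mon. Points are transcripts, colours give edgeR's call and black lines are medians, which run from -1.01 where Neu came next to 0.25 where B came next.

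By rank of the ratio, of the 50 transcripts with the highest ratios 49 were tested and 33 were lower in spleen. Of the next 50 it was 24 and of the last 50 it was 23, and 1 in each 50 was higher. The shares of all transcripts tested were 18.9% lower and 18.1% higher.

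Transcripts of other sorted types, chosen by the same rule with that type in place of Mon, had other values in the same comparison. Of 150 Neu transcripts 146 were tested, 112 were lower in spleen and 1 was higher, and the median log2 fold change was -2.25. Of 150 B transcripts 148 were tested, 5 were lower and 107 were higher, with a median of 1.24. Of 150 NK transcripts 147 were tested, 1 was lower and 35 were higher, with a median of 0.37. Beside these, 18.9% of all transcripts tested were lower in spleen and 18.1% higher. The tissue from which the type was sorted, blood or spleen, also differs between the lists. The differences between these lists and the Mon list were not tested.

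In the livers the transcripts were at the limit of detection. Their mean over the 15 livers had a median of 0.334 CPM, and it was below 0.1 CPM in 42 of the 150. At these totals, 3 counts correspond to between 0.18 and 0.40 CPM per liver after scaling, and these values cover counting error only. A read is not worth 1 count in every transcript, as given with the processing, so 3 counts need not be 3 reads. A total of 11 transcripts were listed at 0 in all 15 livers and 42 were above 0 in all 15. The share of the Mon mean, as the median over the 150, was 0.163% at the lowest, 0.246% at the median and 0.476% at the highest in Ctrl livers. It was 0.377%, 0.541% and 0.673% after APAP and 0.415%, 0.642% and 0.738% after MDA. A Ctrl liver had 81 to 94 of the transcripts above 0, an APAP liver 89 to 98 and an MDA liver 91 to 105. As shares of the 150, these were 54.0% to 62.7%, 59.3% to 65.3% and 60.7% to 70.0%. The shares of all transcripts above 0 were 53.5% to 56.4%, 55.4% to 58.5% and 55.0% to 57.4%, respectively. These shares and numbers are not scaled for composition, and the medians of all transcripts moved in the same direction, as given next.

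The 15 livers entered 1 edgeR fit over 19545 transcripts with a total of at least 10 counts, and 118 of the 150 monocyte transcripts were tested. The other 32 were too low to test. The rule held the mean of all 15 livers below 1 CPM, so transcripts that rose far in liver could not be among the 150, and no count here speaks for monocyte transcripts in general. After APAP, 29.4% of all transcripts were called, 15.2% higher than Ctrl and 14.2% lower. Of the 118 monocyte transcripts 12 were higher, 4 were lower and 102 were not called, and 28 had an unadjusted p under 0.05, against 40.0% of all. All 5 APAP livers lay above all 5 Ctrl livers in 14 and below them in 0, against 30.1% and 3.49% of all transcripts. After MDA, 14.9% of all transcripts were called, 7.5% higher and 7.39% lower. Of the 118, 4 were higher, 3 were lower and 111 were not called, and 17 had an unadjusted p under 0.05, against 27.9% of all. All 5 MDA livers lay above all 5 Ctrl livers in 10 and below them in 1, against 21.0% and 2.31% of all transcripts. Both comparisons use the same Ctrl livers.

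The medians in liver depended on the scaling. The median log2 fold change of the 118 was -0.12 after APAP and 0.19 after MDA, against 0.05 and 0.02 over all transcripts. With transcripts at 0 in 1 group set to their bound of 3 counts per library, and those with both groups at or below it left out, the medians were -0.21 over 112 and 0.15 over 109. Without TMM normalization they were 0.53 and 0.68, against 0.72 and 0.54 over all transcripts, and 20 of the 118 transcripts were higher after APAP and 12 after MDA. Over all transcripts tested without TMM, 40.3% were higher after APAP and 29.3% after MDA. TMM factors were 0.604 to 0.929 in Ctrl livers, 1.10 to 1.37 in APAP livers and 0.980 to 1.21 in MDA livers. Relative to the median of all transcripts, the median was -0.17 after APAP and 0.17 after MDA with TMM. Without TMM these relative values were -0.19 and 0.14. The scaling thus moved the medians more than their values relative to all transcripts. With limma on log2(CPM + 0.1), also without TMM, the relative value was -0.31 after APAP, and that after MDA turned to -0.05.

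Single transcripts differed between the livers. ENSRNOT00000089789 was listed at 0 in all 5 Ctrl livers. It was measured at 0.703, 0.728, 0.789, 0.162 and 0.965 CPM after APAP and at 1.2, 0.751, 0.918, 0.704 and 0.662 CPM after MDA. It was called higher after both (edgeR adjusted p = 0.000228 and 0.000252), and its Mon mean was 31.6 ± 2.66 CPM (SD, n = 6). ENSRNOT00000079227 was measured at 0.560, 1.45, 0.914, 1.02 and 0.970 CPM after APAP, all above the Ctrl livers, of which 4 were at 0 and the other at 0.104 CPM (edgeR adjusted p = 0.0117). After MDA it was at 0 in 3 livers and at 0.523 and 0.295 CPM in the others. No fold is given for these 2 transcripts, since their Ctrl livers were at or near 0.

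ENSRNOT00000020870, the most abundant transcript in Mon, was higher after MDA. It was measured at 0.180, 0.117, 0.337, 0.163 and 0.526 CPM in Ctrl livers and at 1.69, 1.53, 1.02, 0.895 and 1.28 CPM after MDA. All MDA livers were above all Ctrl livers, with a log2 fold change of 1.83 (SE 0.50, edgeR adjusted p = 0.0216). The call was lost without MDA liver 1 and without Ctrl liver 4, where the log2 fold changes were 1.68 and 1.72. After APAP it was at 0.824, 0.580, 0.265, 0.271 and 0.272 CPM, a range that overlaps with Ctrl. The MDA mean of 1.28 CPM compares with 764 CPM in Mon and 231 CPM in WBC.

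The 2 toxicants were compared with each other in the same fit, where 22.6% of all transcripts were called. Of the 118 monocyte transcripts, 1 was higher after APAP than after MDA and 2 were lower, against 11.3% of all transcripts in each direction. At an unadjusted p under 0.05 there were 18, against 35.0% of all. All 5 APAP livers lay above all 5 MDA livers in 5 and below them in 3, against 11.9% and 6.73% of all transcripts. ENSRNOT00000020870 was lower after APAP, with a log2 fold change of -1.68 (SE 0.49, edgeR adjusted p = 0.0212), and the call was lost without MDA liver 1, where it was -1.53. Its lowest APAP livers were near the level of 3 counts. ENSRNOT00000035448 was measured at 1.53, 1.12, 1.51, 1.33 and 0.848 CPM after APAP and at 0.306, 0.352, 0.175, 0.367 and 0.301 CPM after MDA. Every APAP liver was above every MDA liver, with a log2 fold change of 1.93 (SE 0.63, edgeR adjusted p = 0.0367). Its MDA livers were near the level of 3 counts, so the size of this difference is imprecise. The call was lost in 8 of 10 fits that left out a single liver of these groups. In Ctrl livers this transcript was at 0, 0.154, 0, 0.147 and 0.0469 CPM.

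**Figure D5:**
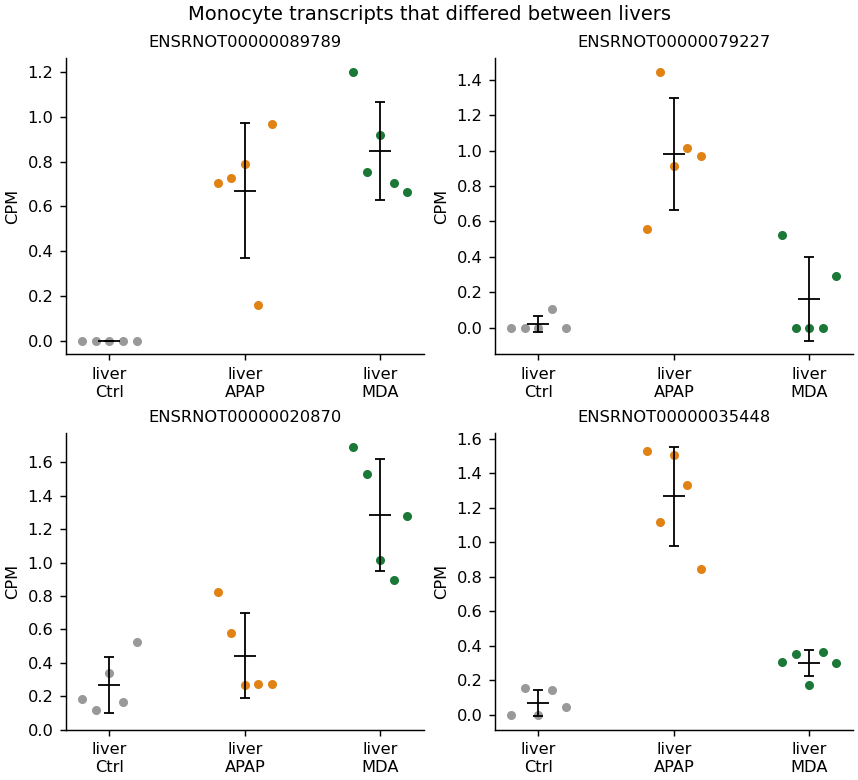
Level in CPM of 4 monocyte transcripts in each of the 15 livers, with points for livers and bars for the mean and SD (n = 5). ENSRNOT00000020870 is highest after MDA (0.895 to 1.69 CPM) and ENSRNOT00000035448 after APAP (0.848 to 1.53 CPM), and all values lie below 2 CPM.

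The counts in liver moved with single samples. The 12 transcripts higher after APAP became 7 without Ctrl liver 2. The 4 lower after APAP became 2 without APAP liver 1, 2, 4 or 5 or Ctrl liver 2, 3 or 4. The 4 higher after MDA became 2 without MDA liver 1 or 3 or Ctrl liver 3 or 4, and the 3 lower became 1 without MDA liver 1, 2, 3 or 5 or Ctrl liver 3. The 3 that differed between the toxicants became 1 without APAP liver 2 or 4 or MDA liver 1 or 5.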

How the data were processed

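The authors trimmed the reads with PRINSEQ++ and ran Salmon 1.6.0, with its GC and sequence bias options on, against Ensembl's Rnor_6.0 cDNA. They then used tximport in R 4.1.3 to write 1 table, whose deposited values were taken here to be estimated counts. The methods name TPM, whose total would be the same in every sample, and the deposited totals differ. Among 1304 low transcripts, 86.9% of the lowest values were within 20% of the transcript's own lowest value, and these lowest values ran from 0.161 to 1.23 (5th to 95th percentile), so a read is not worth the same in every transcript. Fits used values rounded to whole numbers in edgeR 4.0.16 (R 4.3.3), with TMM normalization and Benjamini-Hochberg adjustment over all transcripts tested. CPM is the value over the column sum times 1000000. A mean filter of 1 CPM would have removed every member from the liver fit, so a total of 10 counts was used.

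The members and lists were chosen with earlier results of these data known. Named transcripts were the 2 highest ratios and, in each comparison, up to 2 called higher and 2 called lower with the groups apart and at least 1 CPM (livers 0.5 CPM) in the higher group. The most abundant transcript was also followed in spleen and WBC after its values were seen. Samples were grouped by the labels. No pairing by replicate number was used in the main fits, and pairing among sorted samples was not checked. The correlation of deviations of same-numbered samples was -0.006 to 0.028 for spleen and WBC and -0.291 to 0.170 for livers. The own number was the best match for Ctrl and APAP replicate 1 (0.170) and for APAP and MDA replicates 3 and 5 (0.145 and 0.116), but not for the others. Such correlations cannot settle whether same-numbered spleen and WBC samples came from the same rat. Alternatives were DESeq2 1.42.0, limma 3.58.1 (on CPM without TMM), no TMM, other filters, a replicate block, leaving out samples and other ways of choosing members. The procedure was tested on simulated counts with changes balanced up and down and no shift in composition between groups. That test therefore does not bear on the choice of scaling.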

Additional observations from a re-analysis of the deposited data

Results flagged for a closer look

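Each group of the transcripts named by rule with any spread between its samples, and the median level of the 150 transcripts in each group, was checked for a sample far from the others by Dixon's criterion at 95%. Of 111 groups checked, 14 had such a sample, and chance gives about 1 in 20. In 7 of the 14, a single liver was above 0 and the other 4 were at 0, a pattern that always meets the criterion. These were ENSRNOT00000041605 in Ctrl liver 1 (0.125 CPM) and APAP liver 3 (0.293 CPM), ENSRNOT00000075878 in MDA liver 4 (1.95 CPM) and ENSRNOT00000087520 in APAP liver 1 (0.936 CPM). The others were ENSRNOT00000073025 in Ctrl liver 3 and MDA liver 3 (0.178 CPM each) and ENSRNOT00000079227 in Ctrl liver 4 (0.104 CPM). CD8T and NK replicate 5, which stood nearer to B cells, were high for ENSRNOT00000016567 (5.79 CPM and 7.77 CPM), and CD8T replicate 5 for ENSRNOT00000073025 (1.33 CPM). ENSRNOT00000016567 was low in MDA liver 1 (0.243 CPM). ENSRNOT00000072926 was high in B replicate 2 (37.7 CPM) and low in spleen replicate 5, at 20.5 CPM against 27.6 to 29.3 CPM in the other spleens. ENSRNOT00000073025 was high in spleen replicate 4, at 2.04 CPM against 1.57 to 1.67 CPM.

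The effects of APAP and MDA on 3 transcripts differed by the test of the difference (edgeR, APAP minus MDA). The log2 difference was -1.68 for ENSRNOT00000020870 and 1.93 for ENSRNOT00000035448. It was -1.70 for a transcript whose APAP and MDA livers overlapped, with means of 0.573 and 1.65 CPM.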

How the results depend on the processing

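Leaving out 1 sorted sample kept 146 to 150 of the 150 transcripts. A ratio with 0.1 CPM added kept 139, TMM-scaled CPM kept 118 and a limit on Ctrl livers alone kept 121. The 80 transcripts lower in spleen were 74 to 80 with 1 sample left out and 74 with the replicate number as a block. Their number was 80 with DESeq2, 79 without a filter and 70 without TMM. It was 70 and 71 with limma on log2(CPM + 1) and log2(CPM + 0.1). With members chosen from TMM-scaled CPM it was 69, and with 0.1 CPM added in the ratio it was 72. The 3 higher in spleen were 3 to 4 with 1 sample left out and 5 with limma on log2(CPM + 1) or log2(CPM + 0.1).

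Liver counts moved more. Those higher after APAP were 20 without TMM, 19 with limma on log2(CPM + 1), 5 with the replicate block and 7 to 11 with 1 sample left out. Those lower after APAP were 1 without TMM, 2 without a filter, 1 with either limma fit, 2 with the block and 2 to 3 with 1 left out. Those higher after MDA were 12 without TMM, 14 and 17 with limma, 1 with the block and 2 to 4 with 1 left out. The limma fits also used no TMM, so they are not separate from that setting. With limma on log2(CPM + 0.1), 42.2% of all transcripts tested were higher after APAP and 31.3% after MDA. Those lower after MDA were 1 without a filter, with either limma fit and with the block, and 1 to 3 with 1 left out. Those differing between APAP and MDA were 7 with DESeq2, 8 and 6 with limma, 5 with only these groups fitted and 1 to 3 with 1 left out. The median after APAP turned to 0.53 without TMM and to 0.15 and 0.35 with limma on log2(CPM + 1) and log2(CPM + 0.1). The filter on a mean of 1 CPM was not run in livers. The replicate block ended the calls of ENSRNOT00000020870 (MDA against Ctrl) and ENSRNOT00000035448. The causes were not tested. In livers, 32 of the 150 had too few counts to be tested.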
